A study of Homo sapiens with 4 samples.

Results

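The 10 genes described here form a zinc-handling module of the cell: the zinc exporter gene SLC30A1, the zinc importer gene SLC39A10, the gene of the zinc-sensing transcription factor MTF1, and 7 metallothionein genes, MT1E, MT1F, MT1G, MT1H, MT1M, MT1X and MT2A. They were chosen by name, as genes of the MTF1-driven metal response, after SLC30A1 had been seen among the genes with the largest differences between the groups. Their values in that comparison are therefore a description and carry no test. All probe sets that the array's annotation gives to exactly 1 of these genes were taken, which made 18 of the 54613 probe sets on the array that are not controls. Gene-level counts below refer to 14043 genes.

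Cells of KYSE410, an established line of human esophageal squamous carcinoma, were either treated with 20 nM YM155 for 6 h (2 arrays) or left untreated (2 arrays), and total RNA was measured on Affymetrix 3' expression arrays. YM155 is a compound introduced as an inhibitor of survivin expression. All 4 arrays came from the same line, grown in RPMI medium with serum and antibiotics per the labels. The treatment protocol in the labels speaks of cisplatin, but the treatment labels and the series title name YM155, and these were followed. The labels do not say whether the arrays of a group came from separate cultures, so their spread may be technical. The titles of the YM155 arrays carry the marks B1 and B2, and those of the untreated arrays carry no such mark.

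Free zinc is toxic, and cells keep it low with exporters, importers and binding proteins. MTF1 binds zinc through its zinc fingers, enters the nucleus and activates genes through a short DNA motif, the metal response element. Its best known targets are the metallothioneins, small cysteine-rich proteins that bind zinc, copper and cadmium, and SLC30A1 (ZnT1), which moves zinc out of the cell across the plasma membrane. SLC39A10 (ZIP10) brings zinc in, and in mouse and zebrafish work MTF1 was reported to repress it.

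The upstream sequences show how often that motif occurs before SLC30A1 and before the metallothionein genes whose promoter was at hand. Of the 10 genes, SLC30A1, MTF1, SLC39A10, MT1H, MT1X and MT2A were matched in the RefSeq promoter table (build GRCh38.p14), and MT1E, MT1F, MT1G and MT1M were not. The 250 bases before the gene start are printed below for 3 of them, 5' to 3' on the gene's own strand, with matches to the metal response element core in capitals. The core was searched as TGCACNC and TGCGCNC on both strands, so that a capital run such as GGGTGCA is a match on the opposite strand. The SLC30A1 window lies at chr1:211579162-211579411 on the minus strand, the MT1X window at chr16:56682220-56682469 on the plus strand and the MT2A window at chr16:56608334-56608583 on the plus strand.
SLC30A1: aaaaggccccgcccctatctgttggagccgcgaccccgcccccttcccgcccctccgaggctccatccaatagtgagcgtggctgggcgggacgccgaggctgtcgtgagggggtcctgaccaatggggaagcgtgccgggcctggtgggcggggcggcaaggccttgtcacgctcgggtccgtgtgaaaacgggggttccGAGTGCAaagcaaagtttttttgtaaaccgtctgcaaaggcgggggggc
MT1X: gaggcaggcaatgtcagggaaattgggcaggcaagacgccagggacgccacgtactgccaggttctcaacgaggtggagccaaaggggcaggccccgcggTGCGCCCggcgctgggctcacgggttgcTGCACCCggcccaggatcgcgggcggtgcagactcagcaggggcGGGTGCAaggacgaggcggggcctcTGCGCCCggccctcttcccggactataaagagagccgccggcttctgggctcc
MT2A: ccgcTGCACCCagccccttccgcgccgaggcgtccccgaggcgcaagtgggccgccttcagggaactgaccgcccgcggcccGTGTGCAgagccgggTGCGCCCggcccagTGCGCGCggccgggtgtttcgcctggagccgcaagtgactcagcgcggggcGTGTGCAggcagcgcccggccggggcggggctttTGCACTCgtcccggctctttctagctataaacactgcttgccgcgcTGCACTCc

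MT2A held 7 matches in its 250 bases, MT1H 8 and MT1X 4, SLC30A1 held 1, and MTF1 and SLC39A10 held 0. Of 35116 promoters with the same window, 24.8% held at least 1 match, 0.37% at least 4 and 0.0313% at least 7. In MT1X, MT1H and MT2A a match began between 54 and 53 bases before the start, and in SLC30A1 the match began 49 bases before it, on the opposite strand. SLC30A1 and MT2A each had a further match in the 50 bases after the start, beginning at positions 25 and 31. MT1H and MT1X shared a match that began 78 bases before the start on the opposite strand. A match is a run of letters and was not shown here to be bound.

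**Figure D1:**
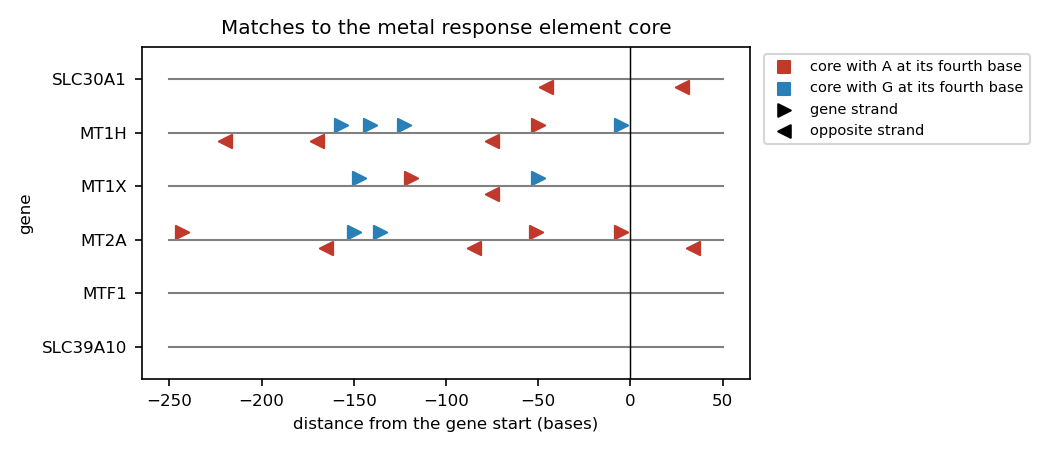
Positions of matches to the metal response element core in the window from 250 bases before to 50 bases after the start of 6 genes (x axis: distance from the gene start in bases; arrowheads: matches, pointing right on the gene strand and left on the opposite strand; colours: the base at the fourth position of the core). SLC30A1 has 2 matches in the whole window, MT1H and MT2A 8 each, MT1X 4, MTF1 and SLC39A10 0.

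Over all 14043 genes, limma called 0 genes (0%) at a Benjamini-Hochberg adjusted p under 0.05, with 0.163 as the lowest adjusted value. Unadjusted p-values under 0.05 were found for 5.23% of genes in the higher and 7.48% in the lower direction. Leaving out untreated replicate 1 gave 1125 called genes, and leaving out any other single array gave 0. The untreated arrays were at least 1 log2 unit (2-fold) apart at 616 genes and the YM155 arrays at 15. With 2 arrays a group, the smallest p an exact two-sided permutation test of a single gene can give is 0.333. The squamous epithelial markers KRT5 (10.7 to 11.2 log2 over the 4 arrays), KRT14 (8.38 to 9.26) and SFN (12.2 to 13.2) were bright, and TP63 and KRT6A had no probe set of their own in the annotation. PTPRC of leukocytes (2.05 to 2.18), CDH5 of endothelium (2.65 to 3.20), COL1A2 of fibroblasts (2.58 to 2.66) and MUC2 of glandular epithelium (3.10 to 3.43) had means below the limit of 3.32 log2 used to leave out dim probe sets. Of the remaining markers of these cell types, CD3E, DCN, PECAM1 and TFF3 lay between 3.39 and 4.45 log2 and COL1A1 between 6.08 and 6.24. The 3' minus 5' signal of ACTB, which grows as RNA is degraded or copied short, was 2.10 and 2.95 log2 in YM155 arrays and 2.72 and 2.18 log2 in untreated arrays, so it did not separate the groups.

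Of the 18 member probe sets, 15 had a mean over the 4 arrays above 3.32 log2. These stood for 9 genes; MT1M, whose single probe set was dim, was not tested. Both YM155 arrays lay above both untreated arrays at 12 of the 15, where the share over all 32768 probe sets tested was 19.4%. Since the members were chosen with this comparison in view, nothing is read from that difference.

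SLC30A1 stood about 5-fold higher after YM155 in both of its bright probe sets. Probe set 212907_at read 10.2 and 10.7 log2 in YM155 arrays, against 8.55 and 7.71 log2 in untreated arrays. On the linear scale this was 1209 and 1607 intensity units in YM155 arrays, against 374 and 209.6 in untreated arrays. The groups were far apart, with 1.69 log2 between the lower YM155 and the higher untreated array, and untreated replicate 1 was the higher of the untreated pair. The mean difference was 2.32 ± 0.33 log2 (limma SE, n = 2 a group), which is 4.98-fold and the third largest positive difference among the 14043 genes.

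Probe set 228181_at gave a second reading of SLC30A1 with little spread. It read 8.80 and 8.74 log2 in YM155 arrays, against 6.43 and 6.58 log2 in untreated arrays. Here the arrays of each group lay within 0.15 log2 of each other, and the gap between the groups was 2.17 log2. The mean difference was 2.27 ± 0.14 log2 (limma SE, n = 2 a group), or 4.81-fold. The third probe set, 242716_at, stayed near the floor of the array, at 2.50 and 2.39 log2 in YM155 arrays, against 2.42 and 2.50 log2 in untreated arrays, and gave no reading of the gene.

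The choice of untreated array made little difference for the size at 228181_at and some at 212907_at. Against untreated replicate 1 alone the YM155 mean was 1.90 log2 higher at 212907_at and 2.34 log2 higher at 228181_at. Against untreated replicate 2 alone it was 2.73 and 2.19 log2 higher. Leaving out each of the 4 arrays in turn kept SLC30A1 between 1.90 and 2.73 log2 at the first probe set and between 2.19 and 2.34 log2 at the second.

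**Figure D2:**
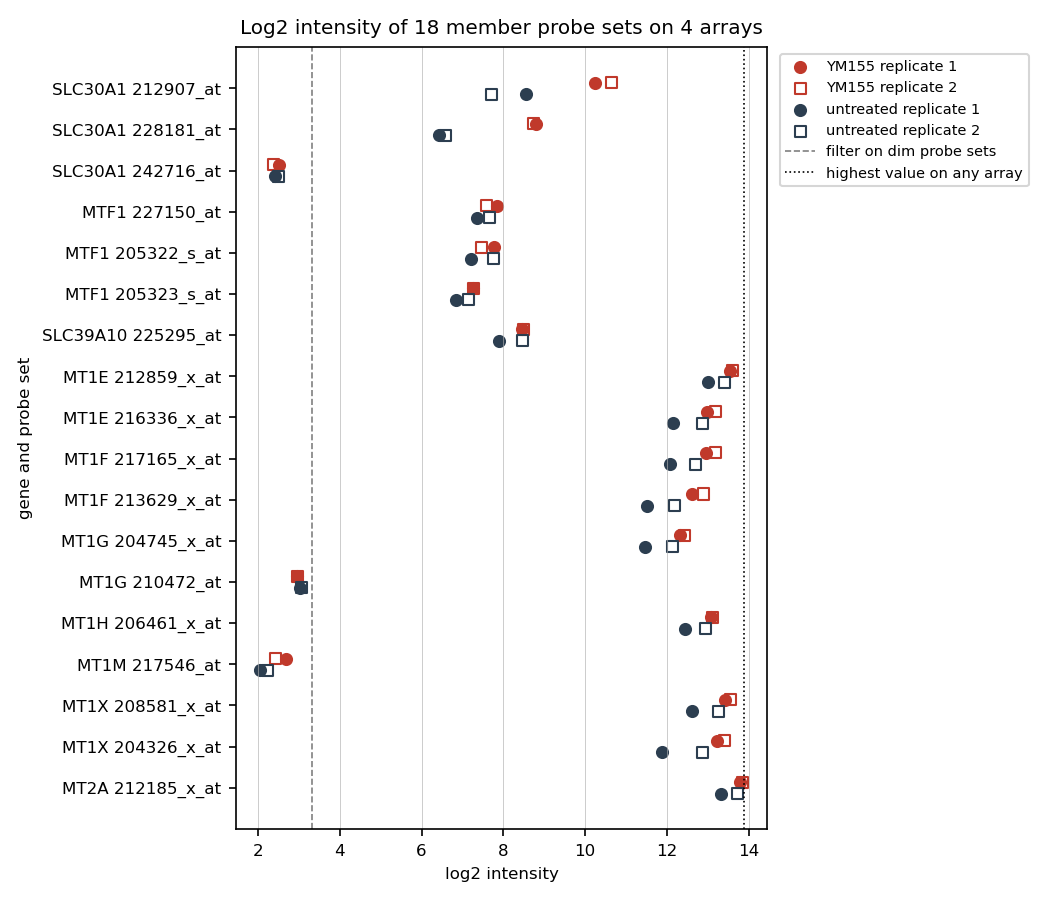
Log2 intensity (x axis) of the 18 member probe sets (y axis) on each of the 4 arrays, with 1 point an array, YM155 in red and untreated in dark blue. SLC30A1 is 1.69 and 2.17 log2 apart between the groups at its 2 bright probe sets, the 9 bright metallothionein probe sets crowd towards the highest value on any array, 13.9 log2, and 3 probe sets lie below the filter at 3.32 log2.

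The regulator and the importer showed much smaller differences than SLC30A1, and most of their arrays overlapped. MTF1, the zinc sensor itself, had 3 probe sets. Its brightest, 227150_at, read 7.85 and 7.59 log2 in YM155 arrays, against 7.36 and 7.65 log2 in untreated arrays, a difference of 0.21 ± 0.18 log2 (limma SE). The groups overlapped there and at 205322_s_at, which read 7.78 and 7.47 log2 in YM155 arrays, against 7.20 and 7.76 log2 in untreated arrays. At 205323_s_at the readings were 7.25 and 7.27 log2 in YM155 arrays, against 6.85 and 7.14 log2 in untreated arrays, without overlap. In all 3 probe sets untreated replicate 1 was the lowest array. Against untreated replicate 2 alone the MTF1 differences were 0.069, −0.13 and 0.12 log2, so the sign at 205322_s_at turned.

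SLC39A10, the zinc importer, had a single probe set, 225295_at. It read 8.45 and 8.49 log2 in YM155 arrays, against 7.89 and 8.47 log2 in untreated arrays. Untreated replicate 2 lay between the YM155 arrays, and untreated replicate 1 stood alone below them. The mean difference of 0.29 ± 0.23 log2 (limma SE) became 0.58 log2 against untreated replicate 1 and 0.00054 log2 against untreated replicate 2.

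All bright metallothionein probe sets read higher in YM155 arrays than in either untreated array, but by small steps. The untreated arrays were further apart than untreated replicate 2 was from the YM155 mean. The 7 genes had 11 probe sets, of which 9, standing for 6 genes, were bright. Among these 9 the difference ran from 0.30 to 0.95 log2 with a median of 0.57. Over all 32768 probe sets tested the median was −0.016 log2. The gap between the lower YM155 array and the higher untreated array was 0.052 to 0.45 log2, and at 6 of the 9 it was under 0.2 log2.

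MT2A, the main human metallothionein in most tissues, had the brightest member probe set, 212185_x_at. It read 13.8 and 13.9 log2 in YM155 arrays, against 13.3 and 13.7 log2 in untreated arrays, which is 14070 and 14865 linear units in YM155 arrays, against 10211 and 13576 in untreated arrays. Untreated replicate 2 lay just under the YM155 arrays, and untreated replicate 1 well below. The difference was 0.30 ± 0.19 log2 (limma SE), or 1.23-fold. On YM155 replicate 2 this probe set was the brightest of all on the array.

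MT1X, an isoform that many human cell types express, had 2 bright probe sets. At 208581_x_at it read 13.4 and 13.6 log2 in YM155 arrays, against 12.6 and 13.3 log2 in untreated arrays. At 204326_x_at the readings were 13.2 and 13.4 log2 in YM155 arrays, against 11.9 and 12.9 log2 in untreated arrays. The differences were 0.55 ± 0.25 and 0.95 ± 0.35 log2 (limma SE). The second is the largest of the metallothionein probe sets, and its representative accession belongs to MT1L, a transcribed pseudogene of the same cluster, although the annotation names MT1X.

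MT1F held the next largest difference among the metallothionein probe sets. Its probe set 213629_x_at read 12.6 and 12.9 log2 in YM155 arrays, against 11.5 and 12.2 log2 in untreated arrays, and 217165_x_at read 13.0 and 13.2 log2 in YM155 arrays, against 12.1 and 12.7 log2 in untreated arrays. The differences were 0.92 ± 0.27 and 0.68 ± 0.26 log2 (limma SE), or 1.89- and 1.60-fold. At 213629_x_at the gap between the groups, 0.45 log2, was the widest among the bright metallothionein probe sets.

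MT1E, MT1G and MT1H, further zinc-binding isoforms of the same cluster, had differences of 0.38 to 0.57 log2 at their bright probe sets. MT1E read 13.5 and 13.6 log2 in YM155 arrays, against 13.0 and 13.4 log2 in untreated arrays, at 212859_x_at (difference 0.38 ± 0.19, limma SE). Its other probe set, 216336_x_at, read 13.0 and 13.2 log2 in YM155 arrays, against 12.2 and 12.9 log2 in untreated arrays (0.57 ± 0.28). In both, the reading of untreated replicate 2 lay closer to those of YM155 than to that of untreated replicate 1. MT1G read 12.3 and 12.4 log2 in YM155 arrays, against 11.5 and 12.1 log2 in untreated arrays, at 204745_x_at (0.57 ± 0.26). MT1H read 13.1 on both YM155 arrays, against 12.4 and 13.0 log2 in untreated arrays (0.40 ± 0.21). Neither group overlapped the other at these probe sets.

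The dim metallothionein probe sets went in opposite directions, that of MT1G lower and that of MT1M higher in YM155 arrays. The second MT1G probe set, 210472_at, read 2.96 and 2.98 log2 in YM155 arrays, against 3.02 and 3.08 log2 in untreated arrays, which is slightly lower. MT1M, a further isoform of the cluster, was read only by 217546_at, at 2.70 and 2.44 log2 in YM155 arrays, against 2.05 and 2.23 log2 in untreated arrays. These are linear values of 4.1 to 8.4 units, near the lowest value in the table (2.42), where no level of the transcript is shown.

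The metallothionein probe sets cannot be read as separate measurements of 7 genes. All 9 bright ones carry the suffix _x_at, which Affymetrix gives to sets with probes that also match other transcripts, and the 2 without it were the dim ones. The genes are neighbours. In the RefSeq gene order of chromosome 16, MT2A, MT1E, MT1M, MT1F, MT1G, MT1H and MT1X follow each other in a cluster bounded by MT4 and MT1X. The rest of the cluster is other metallothionein genes, their pseudogenes and 3 uncharacterised RNA loci. How alike the sequences of these genes are was not computed. Which gene supplied the signal was not tested. All 9 also lay in the top 1% of mean signal. The highest value on an array was 13.8 to 13.9 log2, and 2 of the 9, those of MT2A and one of MT1E, were within 1 log2 of it on every array. On YM155 replicate 2, where each of the 9 came closest, the distance ran from 0 log2 (MT2A) to 1.42 log2 (MT1G). It was 0.96 log2 or less at every one of them except MT1G. Whether a ceiling compresses these differences was not tested.

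The spread between the untreated arrays moved with the metallothionein result. At all 9 bright probe sets the order was the same, with untreated replicate 1 lowest, untreated replicate 2 next and both YM155 arrays above; this order held at 8.03% of all probe sets tested. Untreated replicate 2 exceeded untreated replicate 1 by 0.40 to 0.98 log2 (median 0.65). The YM155 mean exceeded untreated replicate 1 by 0.50 to 1.44 log2 (median 0.90) and untreated replicate 2 by 0.091 to 0.59 log2 (median 0.22). At each of the 9, the distance between the untreated arrays was larger than the distance from untreated replicate 2 to the YM155 mean. The YM155 arrays differed by only 0.056 to 0.28 log2. SLC30A1 differed in size: the YM155 means of its probe sets 212907_at and 228181_at stood at least 1.90 log2 above either untreated array. The order of the untreated arrays was the same at 228181_at (untreated replicate 2 higher by 0.15 log2) and the opposite at 212907_at (lower by 0.84 log2).

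**Figure D3:**
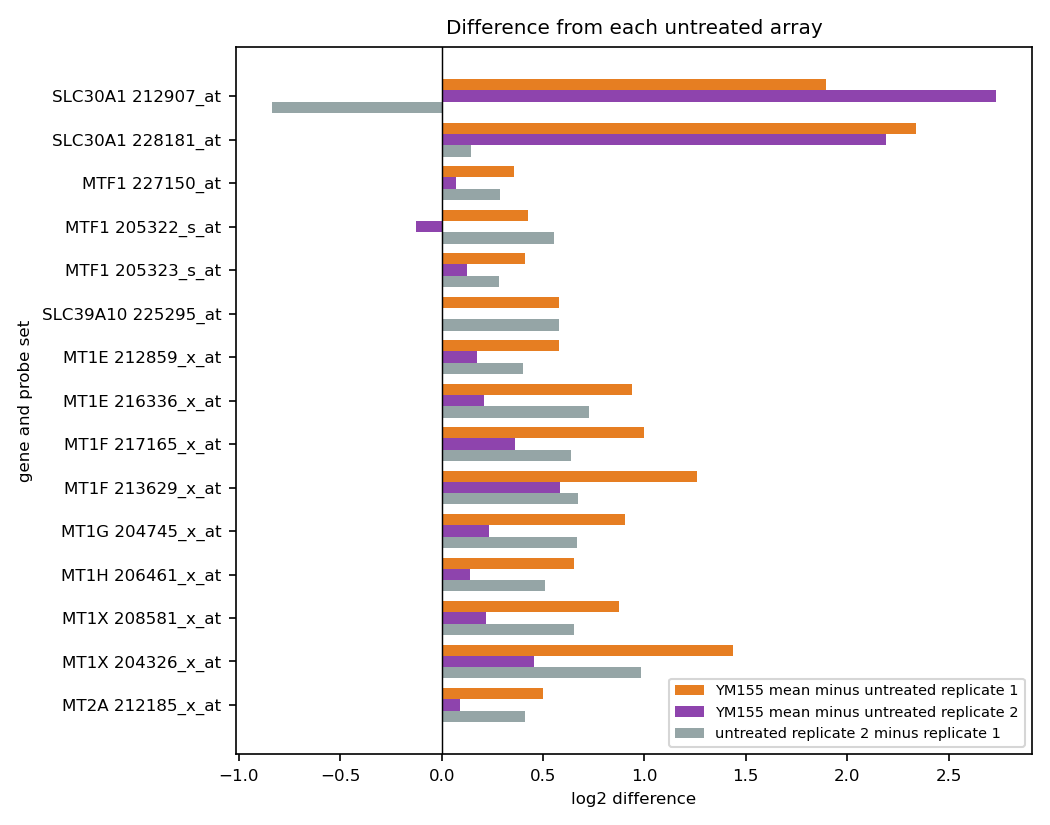
Log2 differences (x axis) for the 15 member probe sets above the filter (y axis): the YM155 mean minus untreated replicate 1 in orange, the YM155 mean minus untreated replicate 2 in purple, and untreated replicate 2 minus replicate 1 in grey. For the metallothioneins the grey bars, 0.40 to 0.98, are longer than the purple ones, 0.091 to 0.59, whereas for SLC30A1 both coloured bars reach at least 1.90.

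The genes whose pattern over the 4 arrays was nearest to SLC30A1 were sought among the 14043 genes by the Euclidean distance between centred log2 values. They were IL6R, the interleukin-6 receptor (distance 0.41 log2), DDX5, an RNA helicase (0.42), EPC1, a subunit of a histone acetyltransferase complex (0.67), EFNB2, an ephrin ligand (0.72), and GRHL3, an epidermal transcription factor (0.82). IL6R read 7.88 and 8.41 log2 in YM155 arrays, against 6.53 and 5.88 log2 in untreated arrays, so untreated replicate 2 was its lowest array as well. None of the 5 is a metal-handling gene of the lists used here. The genes nearest to the mean of the 6 bright metallothionein genes were SH3BP5 (0.025), KRT14, the basal keratin (0.062), RBM14 (0.063), HSPA5, the chaperone BiP (0.065), and SPOCD1 (0.068). Each of them lay nearer to that mean than MT1H, the nearest metallothionein gene itself (0.094). With 4 arrays, such nearness describes the order and spacing of 4 values only.

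Beyond the 10 genes, 69 further genes of zinc, copper and iron handling were listed, and 50 had a probe set above the filter. These lists too were chosen with earlier results of these data known, so the counts are a description. Of these 50, 0 passed limma's adjusted threshold in either direction, with 7 higher and 2 lower at an unadjusted p under 0.05, where the shares over all genes were 5.23% and 7.48%. Without untreated replicate 1, where 8.01% of all genes passed, 6 of the 50 did: GCLC, KLF4, SLC30A6, SLC39A14 and TFRC higher and SLC30A4 lower. Their differences were positive for 29 and negative for 21, with a median of 0.028 log2, against −0.015 over all genes. The smallest adjusted p by limma among them was 0.163.

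Among the other zinc exporters, 7 of 10 genes were tested, and none stood near SLC30A1. SLC30A7, which loads zinc into the Golgi, was 0.54 ± 0.14 log2 (limma SE) higher, at 9.02 and 9.17 log2 in YM155 arrays, against 8.49 and 8.63 log2 in untreated arrays (limma adjusted p = 0.268). Its 3 probe sets all gave positive differences, from 0.46 to 0.57. SLC30A4, a vesicular exporter, had a difference of −0.48 ± 0.23 log2 (adjusted p = 0.491). SLC30A6, a Golgi zinc transporter that works with SLC30A5, read 0.38 ± 0.34 and SLC30A9, a mitochondrial one, 0.27 ± 0.25, with overlapping arrays for both and a turned sign without untreated replicate 2 (−0.10 and −0.060). The list's median was 0.023 log2.

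Of the other zinc importers, 11 of 13 were tested, with 8 positive and 3 negative differences and a median of 0.14 log2. The outermost were SLC39A4, the intestinal zinc importer, at 0.61 ± 0.17 log2 (limma SE, adjusted p = 0.289), and SLC39A7, which releases zinc from the endoplasmic reticulum, at −0.52 ± 0.15 log2 (adjusted p = 0.314). SLC39A4 was dim, at 4.63 and 4.33 log2 in YM155 arrays, against 3.96 and 3.79 log2 in untreated arrays. SLC39A7 read 7.41 and 7.22 log2 in YM155 arrays, against 7.73 and 7.95 log2 in untreated arrays. SLC39A14, which carries zinc and iron, read 9.75 and 9.73 log2 in YM155 arrays, against 9.61 and 8.86 log2 in untreated arrays, so most of its difference of 0.50 ± 0.27 came from untreated replicate 2. SLC39A5 stood at 0.31 ± 0.23, and its other probe set gave −0.033.

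Only 3 of 12 other metallothionein genes and pseudogenes had a probe set of their own in the annotation. MT1HL1 (211456_x_at) repeated the pattern of the bright members, at 13.1 on both YM155 arrays, against 12.6 and 13.0 log2 in untreated arrays (0.33 ± 0.18, limma SE, adjusted p = 0.532). This probe set also carries the suffix _x_at, and its readings were close to those of MT1H. It therefore cannot be read as a measurement separate from the bright members. MT3, the brain metallothionein, and MT4, that of stratified squamous epithelium, were dim. MT4 read 4.17 and 4.40 log2 in YM155 arrays, against 3.69 and 3.97 log2 in untreated arrays (0.46 ± 0.17, adjusted p = 0.378), and MT3 stood at 0.22 ± 0.13 (adjusted p = 0.555).

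Other genes reported as MTF1 targets or as responsive to zinc or cadmium were split. Of the 7 tested, GCLC, the catalytic subunit of the enzyme that starts glutathione synthesis, was 1.05 ± 0.12 log2 (limma SE) higher, at 10.32 and 10.34 log2 in YM155 arrays, against 9.25 and 9.32 log2 in untreated arrays (adjusted p = 0.163). KLF4, a transcription factor, was 0.82 ± 0.13 higher (adjusted p = 0.184) and TXNRD1, the cytosolic thioredoxin reductase, 0.67 ± 0.20 higher (adjusted p = 0.315), and neither passed. The selenoprotein gene SELENOW had a difference of −0.17 ± 0.17. GCLC, KLF4 and TXNRD1 are also targets of pathways other than MTF1. The 3 probe sets of GCLC ran from 0.098 to 1.45 log2 and the 2 of KLF4 from 0.36 to 0.82. The 2 of PGF, a further gene of this list, ran from −1.39 to −0.12, and the 6 of SELENOH from −0.55 to 0.10.

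Copper-handling genes had differences no larger than 0.37 log2 in size at the brightest probe set of each gene. All 14 were tested, 7 positive and 7 negative, with a median of −0.021 log2. ATP7B, a copper-exporting ATPase, stood at −0.37 ± 0.15 (limma SE, adjusted p = 0.409), SLC31A1, the copper importer CTR1, at −0.32 ± 0.16 (adjusted p = 0.498), ATOX1, a copper chaperone, at −0.32 ± 0.19 and SCO1, which helps to insert copper into cytochrome oxidase, at −0.27 ± 0.20. The probe sets of SLC31A1 ran from −0.32 to 0.41, both signs. Of 8 iron-handling genes tested, TFRC, the transferrin receptor, stood highest, at 11.8 and 11.9 log2 in YM155 arrays, against 11.3 and 10.6 log2 in untreated arrays (0.90 ± 0.24, adjusted p = 0.282), although its 4 probe sets ran from −0.29 to 0.90. SLC11A2, the iron importer DMT1, was lowest at −0.45 ± 0.15 (adjusted p = 0.344), with all 3 probe sets negative. NCOA4, the receptor for ferritin breakdown, stood at 0.28 ± 0.15, and HAMP, the hepcidin gene, at −0.20 ± 0.16 in a dim probe set.

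**Figure D4:**
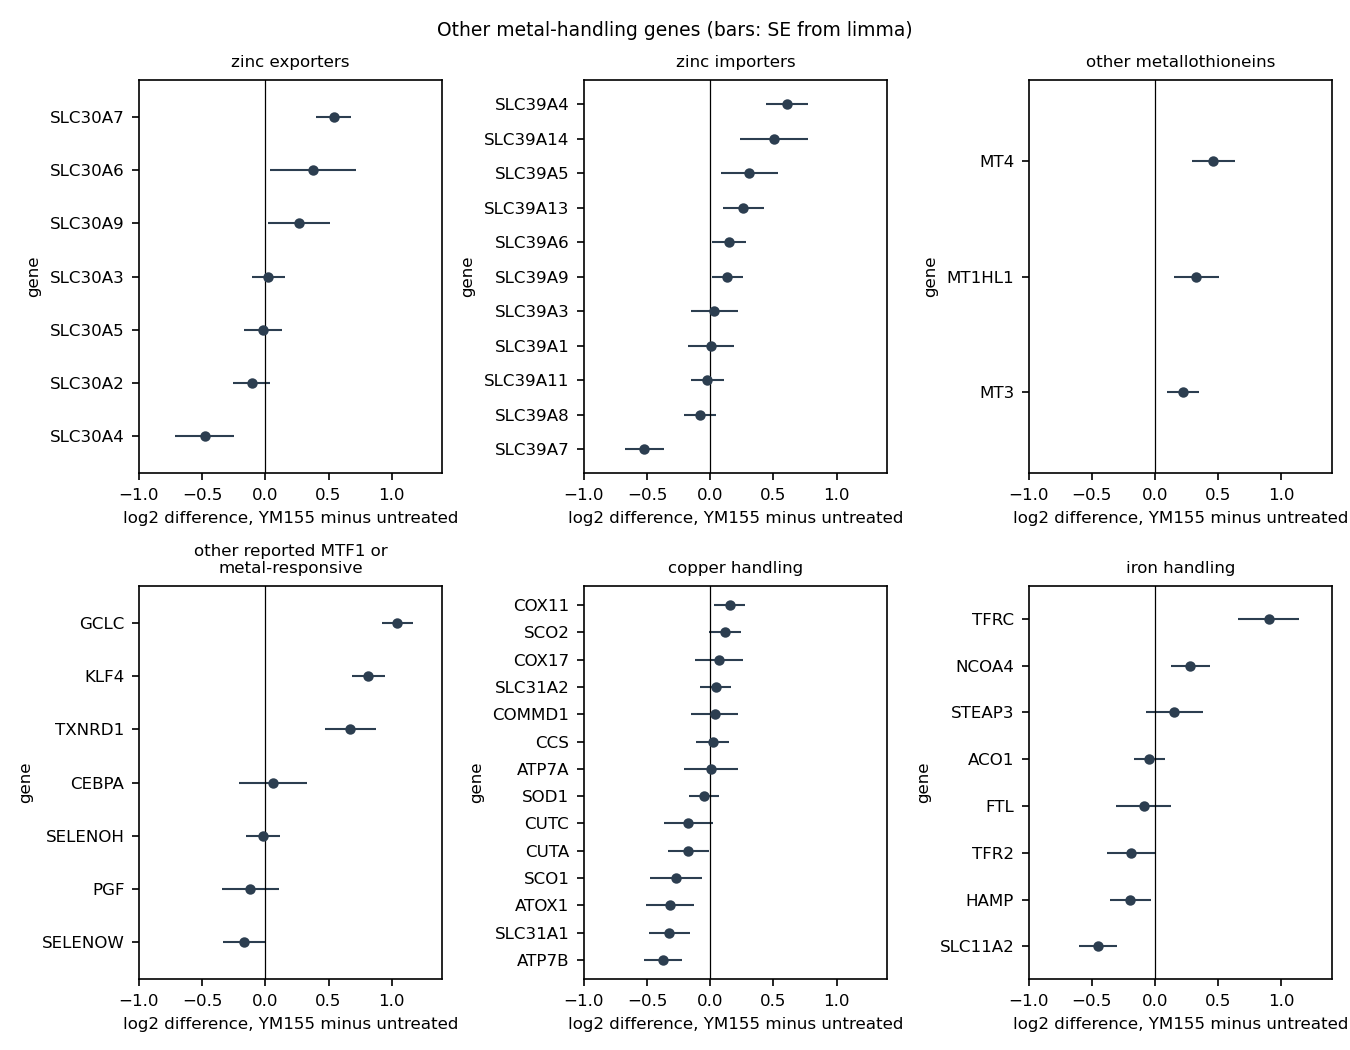
Log2 differences, YM155 minus untreated (x axis; points, with the limma SE as bars), of the 50 other metal-handling genes tested, each list in a panel of its own (y axis: genes). The points run from −0.52 for SLC39A7 to 1.05 for GCLC, and the copper genes stay within 0.37 of 0.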

How the data were processed

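The members and gene lists were chosen with earlier results of these data known. Per the submitters' processing notes, the deposited intensity values come from RMA (robust multi-array averaging), of no stated version; they are on a linear scale (2.42 to 15214). Array medians were 16.0 to 16.3, so a shift shared by all genes is not measured. Log2 was taken. The 62 control probe sets were left out, as were probe sets with a mean below the 40th percentile (3.32 log2). Gene symbols came from the platform annotation, where 41091 probe sets had 1 symbol, 1801 several and 11721 none.

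YM155 was set against untreated in R 4.3.3 with limma 3.58.1 (a two-sided moderated test on group alone) and Benjamini-Hochberg adjustment at 0.05. It was fitted over 14043 genes, each represented by its brightest probe set, and over 32768 probe sets. Member differences are group means with the SE of the probe set fit. The fit was tested on simulated data. The number of arrays limits the precision: 2 a group. Named genes are the members, up to 4 genes of each other list by size of difference, the 5 nearest in pattern and the cell type markers. PGF and SELENOH are named for the range of their probe sets. Promoter sequences are RefSeq's, build GRCh38.p14. Same-numbered arrays did not deviate together (r = 0.00036 over genes).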

Additional observations from a re-analysis of the deposited data

How the results depend on the processing

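Limits: 2 arrays a group, a wide gap between the untreated arrays, and bright metallothionein probe sets with the _x_at suffix and very high signal. By limma, 0 genes and 0 probe sets passed with no filter, a filter at the 60th percentile, a second quantile normalization, centring, eBayes with trend and robust, or the replicate number as a block (0 with the block, against 0 without). At gene level, averaging the probe sets of each gene and dropping those with an _x_at or _s_at suffix also gave 0. Leaving out each array gave 0 to 1125 genes (1125 without untreated replicate 1, 604 higher and 521 lower) and 0 probe sets; that fit assumes that the lone untreated array varies like the YM155 arrays. Of the other metal-handling genes, 0 to 6 passed, the 6 without untreated replicate 1: GCLC, KLF4, SLC30A6, SLC39A14 and TFRC higher and SLC30A4 lower. The median metallothionein difference over all 11 probe sets, 0.55 log2, ran from 0.22 (without untreated replicate 1) to 0.87 (without untreated replicate 2), and was 0.43 with the brightest probe set of each gene. That 0.43 is the value of the dim MT1M probe set, the middle one of the 7 genes. Without the _x_at sets, which are also those in the top 1%, only the 2 dim probe sets remained (0.17). SLC30A1 kept to 1.90 to 2.73 with each array left out. Without untreated replicate 2 the sign turned for SLC30A6 (−0.10, against up to 0.86 with other arrays left out). The sign there also turned for SLC30A9 (−0.060, against up to 0.59) and SELENOW (0.0093, against down to −0.35). No other gene named by size of difference in the further metal-handling lists changed sign under these alternatives. PGF and SELENOH were not part of that check. Among the member probe sets the sign turned at MTF1 205322_s_at (0.15, −0.13 without untreated replicate 1 and −0.0054 without YM155 replicate 1) and at the dim SLC30A1 242716_at (−0.015, 0.028 with centring, 0.041 without YM155 replicate 2 and 0.024 without untreated replicate 2), and at no other. Same-numbered arrays share only a number, and the block changed no count of calls.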
